A study of Homo sapiens with 24 samples.

Results

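CXCL10, a chemokine that hepatocytes secrete and that draws activated T cells, differed between samples of 1 hepatoma line even where the stress gene DDIT4 was low. The members described here are 10 of 24 arrays, chosen by their measured DDIT4 and CXCL10 values. DDIT4, an mTOR inhibitor induced by stress, was under 9.0 on the log2 scale in 14 arrays, and among these the 5 with the highest CXCL10 are called the CXCL10-high arrays and the 5 with the lowest the CXCL10-low arrays. All arrays carried RNA from Huh7.5.1, a human hepatoma line permissive to hepatitis C virus, used here without virus. Cells received silymarin, a mixture of flavonolignans from milk thistle, or its solvent DMSO, for 4, 8 or 24 h, with 4 DMSO and 4 silymarin arrays at 4 h, 5 and 3 at 8 h, and 5 and 3 at 24 h. The silymarin dose is not given in the sources used here. The labels do not say that replicates were separate cultures, so p-values measure the spread between samples. By the labels everything described is 1 cell line, and the values do not settle whether other cells were present.

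The CXCL10-high arrays were DMSO 24 h replicates 2, 4 and 5 and silymarin 4 h replicates 2 and 4. The CXCL10-low arrays were DMSO 4 h replicates 2 and 3, DMSO 24 h replicate 1, silymarin 4 h replicate 3 and silymarin 24 h replicate 3. Each set thus held 3 DMSO and 2 silymarin arrays. By time, the high set held 3 arrays at 24 h and 2 at 4 h, the low set 2 at 24 h and 3 at 4 h, and the 3 low-DDIT4 arrays at 8 h fell in neither. A scan date or hybridisation batch is not given in the sources used here.

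Chemokine genes in epithelial cells are switched on mainly by NF-kB, a family of dimers that inhibitor proteins of the IkB class hold in the cytoplasm until a cytokine or danger signal frees them. NF-kB also turns on its own inhibitors, among them NFKBIA and TNFAIP3, so targets and brakes usually move together. CXCL10 answers both NF-kB and interferon, through kB sites and an interferon-stimulated response element close to its start. Interferon-stimulated genes respond through the STAT and IRF factors instead. In hepatocytes, inflammatory cytokines also raise acute phase proteins such as haptoglobin.

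The promoters of the genes that the results turn on are shown because they hold or lack those elements. Each sequence is the 250 bases before the start of the gene in RefSeq's GRCh38.p14, read 5′ to 3′ on the strand of the gene. Capitals mark matches, on either strand, to GGNNNTTCC, a loose form of the kB site, or, in CXCL10 alone among these, to the core of the interferon response element, here the letters GAAA, any 2 bases and GAAA again.
CXCL10 (chr4:76023498-76023747, minus strand): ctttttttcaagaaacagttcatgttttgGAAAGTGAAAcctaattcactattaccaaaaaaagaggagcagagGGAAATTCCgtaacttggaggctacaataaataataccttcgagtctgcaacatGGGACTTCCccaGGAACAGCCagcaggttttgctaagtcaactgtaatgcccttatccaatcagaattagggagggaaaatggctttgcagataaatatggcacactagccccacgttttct
CXCL8 (chr4:73740319-73740568, plus strand): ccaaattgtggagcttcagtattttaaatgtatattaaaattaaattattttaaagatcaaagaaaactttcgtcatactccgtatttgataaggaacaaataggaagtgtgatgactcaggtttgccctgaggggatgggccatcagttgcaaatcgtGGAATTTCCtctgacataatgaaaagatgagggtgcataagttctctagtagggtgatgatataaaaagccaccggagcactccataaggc
CXCL1 (chr4:73869143-73869392, plus strand): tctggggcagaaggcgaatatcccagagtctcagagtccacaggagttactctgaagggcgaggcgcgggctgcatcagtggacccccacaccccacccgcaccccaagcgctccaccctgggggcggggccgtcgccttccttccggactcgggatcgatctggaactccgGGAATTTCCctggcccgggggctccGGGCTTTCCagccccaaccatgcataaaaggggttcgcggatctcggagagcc
TNFAIP3 (chr6:137867009-137867258, plus strand): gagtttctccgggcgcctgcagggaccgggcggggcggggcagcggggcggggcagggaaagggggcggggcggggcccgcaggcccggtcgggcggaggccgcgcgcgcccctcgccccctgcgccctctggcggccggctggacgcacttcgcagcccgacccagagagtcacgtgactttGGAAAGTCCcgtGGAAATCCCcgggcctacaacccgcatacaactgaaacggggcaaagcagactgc
ICAM1 (chr19:10270870-10271119, plus strand): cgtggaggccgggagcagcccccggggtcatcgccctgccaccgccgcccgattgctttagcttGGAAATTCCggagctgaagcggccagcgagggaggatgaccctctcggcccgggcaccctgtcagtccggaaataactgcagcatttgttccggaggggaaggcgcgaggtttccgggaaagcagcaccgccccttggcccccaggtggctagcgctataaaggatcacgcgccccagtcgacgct
HABP2 (chr10:113550581-113550830, plus strand): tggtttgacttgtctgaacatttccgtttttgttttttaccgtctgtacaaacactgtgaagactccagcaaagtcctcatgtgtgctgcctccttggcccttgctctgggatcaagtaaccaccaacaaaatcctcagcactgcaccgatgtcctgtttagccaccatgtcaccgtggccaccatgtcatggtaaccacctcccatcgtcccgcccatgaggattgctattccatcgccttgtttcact
SLC2A6 (chr9:133479100-133479349, minus strand): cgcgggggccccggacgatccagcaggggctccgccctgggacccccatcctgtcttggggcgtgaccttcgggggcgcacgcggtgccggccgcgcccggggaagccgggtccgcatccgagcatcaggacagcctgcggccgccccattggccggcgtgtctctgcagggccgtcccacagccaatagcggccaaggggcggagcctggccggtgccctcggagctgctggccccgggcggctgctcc
HEPACAM2 (chr7:93232199-93232448, minus strand): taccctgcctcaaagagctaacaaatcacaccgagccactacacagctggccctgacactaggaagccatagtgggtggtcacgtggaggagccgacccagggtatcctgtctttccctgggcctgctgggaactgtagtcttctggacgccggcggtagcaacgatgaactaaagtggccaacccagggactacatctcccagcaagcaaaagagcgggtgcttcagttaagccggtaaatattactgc

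In CXCL10 the kB-type letters stood at 176 to 168, 122 to 114 and 110 to 102 bases before the start, and the interferon-type letters, GAAAGTGAAA, at 221 to 212. The CXCL8 match lay at 91 to 83, the 2 CXCL1 matches at 78 to 70 and 53 to 45, the 2 TNFAIP3 matches at 67 to 59 and 55 to 47, and the ICAM1 match at 186 to 178. HABP2, SLC2A6 and HEPACAM2 had no match in this window, and neither had NFKB2 or CD68, which are not shown. Over all 27305 promoters of this length 17.1% held GGNNNTTCC and 3.07% the interferon-type core, and over the 14121 of genes compared here 18.8% and 2.55%. Of the genes described below as higher in the CXCL10-high arrays without overlap, 61 matched a promoter and 26.2% of those held GGNNNTTCC and 1.64% the interferon-type core. Of the genes that were lower without overlap, 29 matched, with 27.6% and 3.45%. A match is a description of letters, not a binding site.

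CXCL10 chose the sets, so its values are given without a test. It was 8.51, 8.65, 8.66, 8.83 and 9.51 in the CXCL10-high arrays and 7.45, 7.57, 7.73, 7.79 and 7.84 in the CXCL10-low arrays, all on the log2 scale. The difference of means was 1.16, or 2.23-fold. In bulk RNA, fewer cells making a transcript and less of it per cell cannot be told apart. DMSO 24 h replicate 5 was the highest. Just inside the high set was DMSO 24 h replicate 2 at 8.51, and just outside it silymarin 24 h replicate 2 at 8.48, so the upper edge of the set is narrow. At the lower edge silymarin 4 h replicate 3 at 7.84 was inside and silymarin 8 h replicate 2 at 7.90 outside. DDIT4 averaged 7.85 ± 0.35 (SD, n = 5) in the high set and 7.95 ± 0.28 (SD, n = 5) in the low set, and its values overlapped. In the 10 arrays with DDIT4 of 9.67 or more CXCL10 ran from 4.57 to 7.98, a range that overlaps that of the CXCL10-low arrays and lies under that of the CXCL10-high arrays.

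The levels of cell type markers were set beside the label. Albumin (ALB), the main plasma protein of hepatocytes, averaged 13.33 in the CXCL10-high and 13.31 in the CXCL10-low arrays, and AFP, a fetal liver protein that hepatomas keep, 13.11 and 13.15. Of 13 measured lymphocyte markers 6 differed upward, and the mean of the list lay between 5.60 and 5.72 in the high arrays and between 5.63 and 5.73 in the low ones. For 12 macrophage markers the array means lay between 6.94 and 7.02 in both sets, and PTPRC (CD45), which marks all leukocytes and was listed with the lymphocyte markers, averaged 4.28 and 4.45. Endothelial, stellate and cholangiocyte lists had median differences between -0.02 and -0.01. Not every member was low. LYZ, listed with the macrophage markers, was 12.14 to 12.60 in the high arrays and 12.07 to 12.62 in the low ones. EPCAM, listed with the cholangiocyte markers, was 10.14 to 10.58 and 10.12 to 10.63. List means and differences between the sets therefore do not settle which cells were present.

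Of the 18273 genes other than CXCL10, 74 had all 5 CXCL10-high arrays above all 5 CXCL10-low arrays (0.405% of genes) and 41 had them all below (0.224%). These counts, the differences and the list summaries come from the contrast that CXCL10 defined, so they are descriptions with no test. How many genes an unrelated split of these arrays would separate was not computed. Neither count therefore shows by itself that genes moved with CXCL10. Of the 74 genes, 40 were above the median gene in mean level. The differences were small for most, with a median of 0.17 on the log2 scale, and 4 reached 0.5. The mean of the low-DDIT4 arrays in neither set lay between the 2 set means for 48 of the 74 (64.9%). It did so for 14 of the 41 (34.1%) and for 19.0% of all genes, whose set means mostly lay closer together. Separation of the sets was thus not always a graded change with CXCL10. However, 3 of the arrays in neither set were at 8 h, a time absent from both sets. Their place between the sets and their time point cannot be told apart.

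The chemokines had the highest median difference of the 29 lists. Of the 14 measured besides CXCL10, 13 were higher in the CXCL10-high arrays, with a median difference of 0.25 against 0.00 over all genes, and 2 had no overlap. CXCL8, the chief neutrophil attractant, was 10.44, 10.46, 10.52, 10.80 and 10.83 in the high arrays and 9.21, 9.76, 9.99, 10.22 and 10.27 in the low ones. Its difference of 0.72 was the largest of all genes compared. It was 0.71 among the 24 h arrays alone and 0.74 among the 4 h arrays alone. CXCL1, another ligand of the neutrophil receptor CXCR2, was 10.37, 10.46, 10.57, 10.80 and 10.84 against 9.73, 9.87, 10.19, 10.24 and 10.32, a difference of 0.54. The nearest arrays of the 2 sets were 0.17 apart for CXCL8 and 0.05 apart for CXCL1.

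Other chemokines had differences as wide but overlapping sets. CXCL2 was 7.37, 7.68, 7.99, 8.09 and 8.32 against 6.98, 7.06, 7.20, 7.27 and 7.67, a difference of 0.65. CCL20, which draws CCR6-bearing lymphocytes and dendritic cells, differed by 0.60, since the low arrays reached from 10.34 to 11.60 and the high arrays from 11.31 to 11.80. CXCL6 differed by 0.47, CXCL5 by 0.36 and CX3CL1 by 0.24. The closest relatives of CXCL10 in function, the CXCR3 ligands CXCL9 and CXCL11, stayed near the bottom of the scale, at 4.23 and 3.94 in the high set and 4.18 and 4.05 in the low set. CXCL1, CXCL2 and CXCL3 are close in sequence, and cross-hybridisation between their probe sets was not examined.

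**Figure D1:**
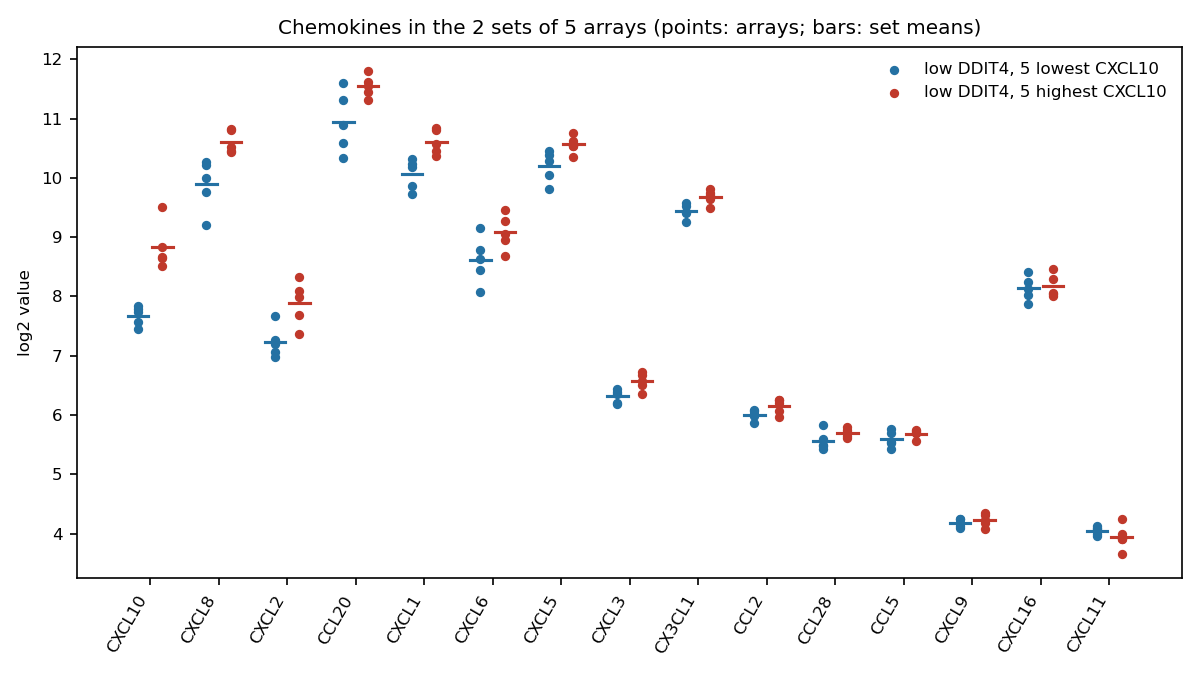
Log2 values of CXCL10 and 14 other chemokines, ordered by their difference, with 1 point per array and a bar at the mean of each set of 5 arrays. CXCL8 and CXCL1 do not overlap between the sets, CXCL2 and CCL20 do, and CXCL9 and CXCL11 lie near 4 in both; heights are not comparable between genes.

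Of 17 measured NF-kB subunits and feedback regulators, 16 were higher in the CXCL10-high arrays, with a median difference of 0.13. The 5 without overlap were TNFAIP3, TNFAIP2, NFKB2, NFKBIA and BCL3, while the inhibitors NFKBIB (0.13), NFKBIE (0.08), NFKBIZ (0.09) and TNIP2 (0.02) overlapped. TNFAIP3 (A20), the ubiquitin-editing enzyme that ends NF-kB signalling, was 9.17, 9.19, 9.30, 9.59 and 9.73 in the high arrays and 8.56, 8.71, 8.74, 8.85 and 9.09 in the low ones, a difference of 0.61. The 2 highest were silymarin 4 h replicate 4 and DMSO 24 h replicate 5, which also had the highest CXCL10. TNFAIP2 was 8.69 to 9.30 against 8.30 to 8.55, and NFKB2, the p100 precursor of noncanonical signalling, 8.57 to 9.04 against 8.25 to 8.50. NFKBIA, the IkB protein that traps NF-kB in the cytoplasm, had a smaller difference of 0.17 (11.22 to 11.38 against 11.01 to 11.19), as did BCL3, a nuclear IkB relative, with 0.17.

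The subunits of the canonical dimer were nearly level. RELA differed by 0.06, NFKB1 by 0.06 and REL by -0.05, while RELB, the partner of NFKB2, differed by 0.31 with overlapping sets. The difference of NFKB2 was 0.42 among the 24 h arrays and 0.20 among the 4 h arrays. TNF and IL1B, cytokines that activate this pathway, and IL6, one of its targets, were low in both sets. TNF averaged 5.98 and 5.91, IL1B 5.07 and 5.17, and IL6 4.98 and 4.90 in the high and low sets.

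Among 23 measured effector targets of NF-kB, 16 were higher, with a median difference of 0.08 and 1 gene without overlap. That gene was ICAM1, the adhesion molecule that leukocyte integrins bind, at 10.98, 11.10, 11.17, 11.19 and 11.39 against 10.38, 10.39, 10.80, 10.90 and 10.93. TNFRSF9 (4-1BB), a TNF receptor, differed by 0.64, CSF1, the macrophage growth factor, by 0.48, and SOD2, the mitochondrial superoxide dismutase, by 0.26, each with overlap. IL18 went the other way by -0.55, but its low-set values ran from 5.59 to 7.69. Without silymarin 24 h replicate 3 the IL18 difference was -0.26, and without silymarin 4 h replicate 4 it was -0.31.

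Interferon-stimulated genes were centred near 0. Of 31 measured, 20 were higher, with a median difference of 0.01, 0 without overlap on the high side and 1, HERC5, on the low side. GBP2, a guanylate-binding GTPase, had the largest difference of the list, 0.63. Its high arrays were at 7.43, 7.67, 7.87, 8.09 and 8.18 and the low ones at 6.61, 6.97, 7.13, 7.54 and 7.83. PARP9 differed by 0.18, or by 0.12 without DMSO 24 h replicate 2. DTX3L was 8.89 to 9.10 against 8.66 to 8.93, with overlap. IFIT1 differed by -0.08, MX2 by -0.01, OAS1 by 0.00 and RSAD2 by -0.10. HERC5, an ISG15 ligase, was 5.62 to 5.83 in the high arrays and 5.92 to 6.03 in the low ones, which is low on this array. IRF1, an interferon-response factor that NF-kB also induces and that was listed with its effectors, was 7.92 to 8.19 against 7.69 to 7.95, so the sets overlapped.

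Liver secretory genes were mostly on the higher side. Of 22 acute phase and complement genes 18 were higher, with a median of 0.09 and 0 without overlap, and of 21 hepatocyte genes 15, with a median of 0.05. Haptoglobin (HP), which binds free haemoglobin, was 8.87, 9.09, 9.43, 9.89 and 9.92 against 8.62, 8.64, 8.93, 9.04 and 9.04, a difference of 0.59. SERPINC1 (antithrombin) differed by 0.47 and APOC3, an inhibitor of lipoprotein lipase, by 0.30. C4BPA, a complement inhibitor, was 1 of 4 acute phase and complement genes on the lower side, at -0.32 (-0.19 without silymarin 24 h replicate 3), and the serum amyloid gene SAA2 differed by -0.01.

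HABP2, a liver serine protease that circulates as factor VII-activating protease, had the second largest difference after CXCL8. It was 10.13, 10.14, 10.27, 10.67 and 10.88 in the CXCL10-high arrays and 9.30, 9.62, 9.86, 9.96 and 10.05 in the CXCL10-low ones, a difference of 0.66. CEBPD, an acute phase transcription factor, differed by 0.31 (9.58 to 9.95 against 9.29 to 9.50) and RASD1, a Ras-related G protein, by 0.27. In the low-DDIT4 arrays between the sets CEBPD averaged 9.79 and RASD1 8.65, above their means in the high set, 9.72 and 8.58. CD68, a lysosomal glycoprotein used as a macrophage marker, differed by 0.32, with the nearest arrays at 8.40 and 8.39. It was the 1 macrophage marker of 12 without overlap, and 7 of the 12 were lower. SLC2A6, a lysosomal hexose transporter, was 8.53, 8.60, 8.71, 8.72 and 8.87 against 8.29, 8.40, 8.42, 8.42 and 8.43. THTPA, thiamine triphosphatase, differed by 0.25.

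Over all 14 low-DDIT4 arrays, the genes most like CXCL10 by Pearson correlation were SLC2A6 (r = 0.92), TNFAIP3 (0.90), TNFAIP2 (0.86), ACSL1 (0.86) and SOD2 (0.84). ACSL1 activates long-chain fatty acids. The most opposed were ZMYM2 (r = -0.85), PAN3 (-0.83), HEPACAM2 (-0.83), SLC6A6 (-0.81) and CNOT6 (-0.79). These are descriptions over the arrays that were ranked on CXCL10. When all 14 arrays were used as 7 against 7, 9 genes had no overlap, all higher, and THTPA, SLC2A6, SRF and DIAPH1 were among them, but CXCL8 and TNFAIP3 were not.

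With 5 arrays against 5, fewer genes were lower than higher, and by less. The order of the counts turned with 4 against 4, at 287 lower and 244 higher. It also turned without DMSO 24 h replicate 2, at 203 lower and 166 higher. HEPACAM2, a cell adhesion protein of the immunoglobulin family, was 7.27, 7.84, 7.91, 8.01 and 8.04 in the CXCL10-high arrays and 8.08, 8.18, 8.33, 8.65 and 8.81 in the CXCL10-low ones, a difference of -0.60. SLC6A6, the taurine transporter, was 10.81, 10.84, 11.15, 11.19 and 11.20 against 11.24, 11.27, 11.34, 11.36 and 11.46, a difference of -0.30. The other genes of the 12 with the largest differences on this side lay between -0.20 and -0.12. Among them were CRY1, a repressor of the circadian clock, with all high arrays at 9.24 or less and all low arrays at 9.29 or more, and NKD1, an inhibitor of Wnt signalling, at -0.19. CDK19, a Mediator kinase, differed by -0.12 and NUDT21, a pre-mRNA cleavage factor, by -0.12.

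**Figure D2:**
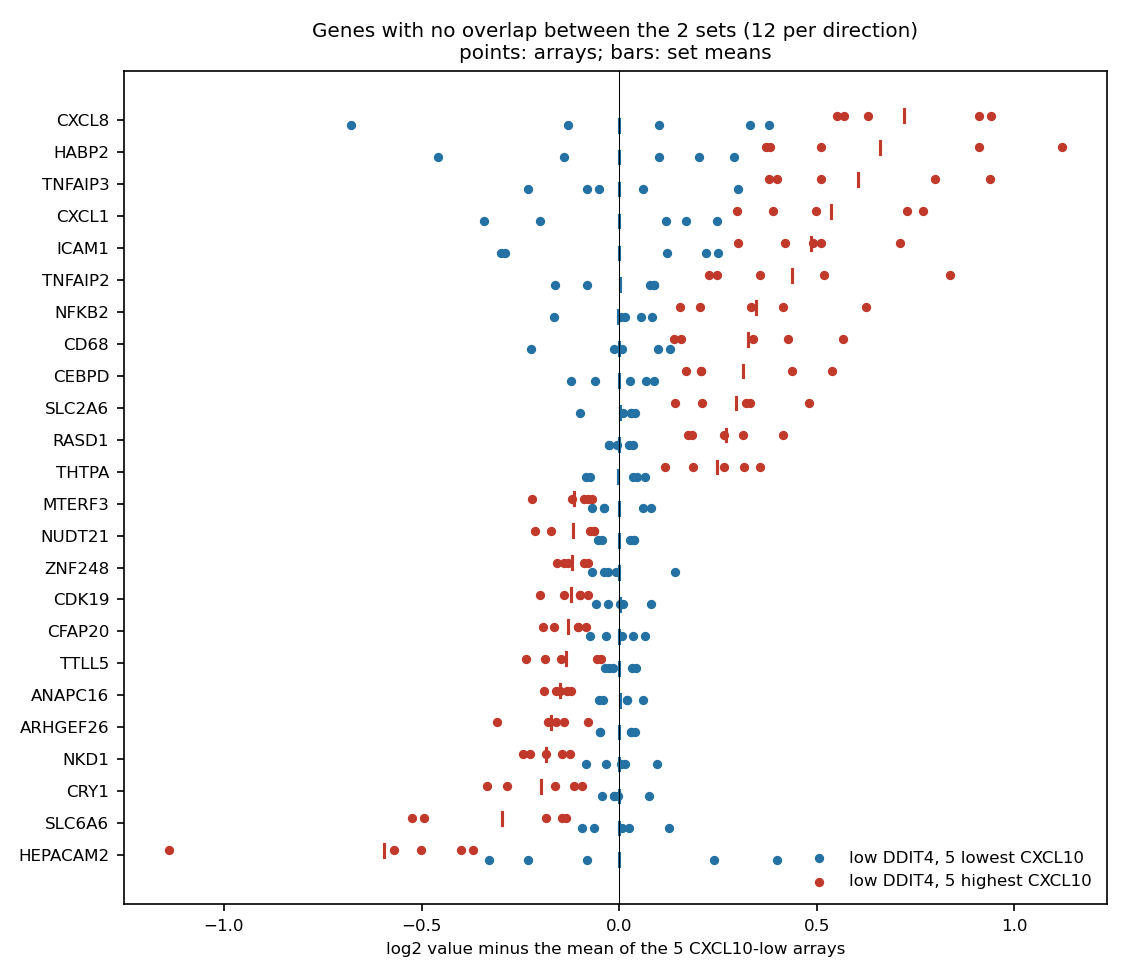
Each array's log2 value minus the mean of the 5 CXCL10-low arrays, for the 12 genes per direction with the largest differences among brighter genes without overlap. Points are arrays and bars are set means; CXCL8, HABP2 and TNFAIP3 have the widest gaps of means upward and HEPACAM2 downward, with 1 array, DMSO 24 h replicate 5, far below the other 4.

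Outside the inflammation lists the median differences lay between -0.09 and 0.10. All 30 measured G2/M and mitosis genes were lower in the CXCL10-high arrays, by 0.03 to 0.16 with a median of -0.09, yet 0 of them had separate sets. Among the 24 h arrays the median of this list was -0.03, and among the 4 h arrays -0.15. CENPE, a mitotic kinesin, differed by -0.16. In the low-DDIT4 arrays between the sets CENPE was 8.92 to 9.34, against 9.29 to 9.60 in the high set and 9.42 to 9.69 in the low set. MAD2L1 and HMMR of this list also had their lowest values in those arrays, so these genes did not grade with CXCL10. Of the arrays between the sets 3 were at 8 h, a time that neither set held. A middle CXCL10 value and the 8 h label therefore cannot be told apart. Of 30 G1/S and replication genes 25 were lower (median -0.06), as were 15 of 18 cholesterol synthesis genes (median -0.05) and 11 of 12 heat shock genes (median -0.03). For 29 ATF4 and stress response genes the median was -0.06, and ASNS, asparagine synthetase, differed by -0.24 with values of 9.45 to 9.64 against 9.48 to 10.13, or by -0.15 without silymarin 4 h replicate 3. Of the metallothionein list, which also holds transporter genes of the SLC30 family, 9 of 10 were higher, with a median of 0.10. MT1M differed by 0.24, from 0.05 without DMSO 4 h replicate 3 to 0.47 without DMSO 4 h replicate 2. MT1G differed by 0.13, from -0.01 without silymarin 24 h replicate 3 to 0.23 without DMSO 4 h replicate 2. MT1H differed by 0.13, from 0.01 without silymarin 24 h replicate 3 to 0.20 without DMSO 24 h replicate 2. ANXA1, the anti-inflammatory annexin A1, differed by -0.47, but by -0.76 without DMSO 24 h replicate 2, by -0.30 without DMSO 24 h replicate 5 and by -0.27 without silymarin 24 h replicate 3. PDGFRA, a growth factor receptor of mesenchymal cells, differed by -0.38 with overlapping sets.

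**Figure D3:**
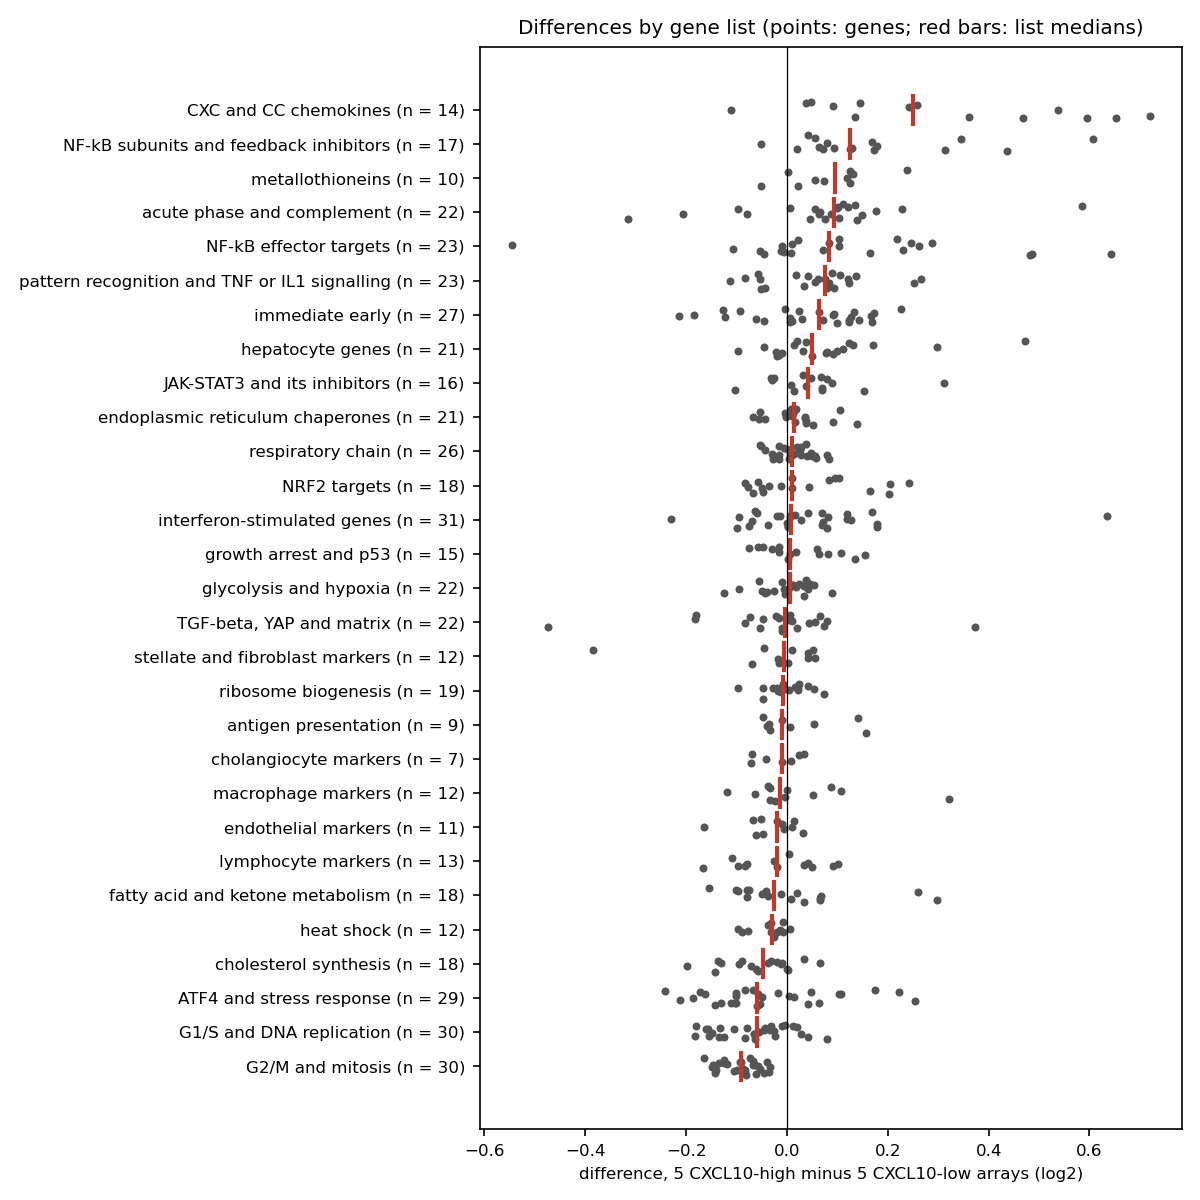
Difference between the CXCL10-high and CXCL10-low arrays for each measured gene of 29 lists (points, log2 scale) and the median of each list (red bars), ordered by the median. The chemokine list has the highest median, 0.25, and the G2/M list the lowest, -0.09, with all 30 of its points left of 0.

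The 10 arrays with high DDIT4, 6 DMSO and 4 silymarin, with 3 at 4 h, 5 at 8 h and 2 at 24 h, had no part in ranking CXCL10, and they were used to ask whether genes followed CXCL10 there too. limma was fitted with CXCL10 as the predictor over these 10 arrays, and the slope is the log2 change of a gene per log2 of CXCL10. After Benjamini-Hochberg adjustment 440 genes rose with CXCL10 (2.41% of 18273) and 174 fell (0.952%), at an adjusted p under 0.05. Of the 74 genes higher without overlap, 15 rose (20.3%) and 1, BEND4, fell. Of the 41 lower genes, 0 rose and 0 fell in this limma fit, which is near the share of all genes that fell. Over all genes 3657 had an unadjusted p under 0.05. The 15 were CXCL8, CXCL1, ICAM1, TNFAIP3, TNFAIP2, NFKB2, NFKBIA, CEBPD, HABP2, RASD1, PLK3, C2, C2orf66, DIAPH1 and TCIRG1.

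TNFAIP3 and CXCL1 shared, with CPN1, the lowest adjusted p of all genes. In the high-DDIT4 arrays TNFAIP3 ran from 7.51 to 9.27 with a median of 8.57, and it rose by 0.58 per log2 of CXCL10 (SE 0.04, limma adjusted p = 1.24e-05). CXCL1 rose by 0.56 (SE 0.04, limma adjusted p = 1.24e-05), CXCL8 by 0.69 (SE 0.07, limma adjusted p = 0.000323) and HABP2 by 0.63 (SE 0.06, limma adjusted p = 0.000307). ICAM1 rose by 0.52 (SE 0.06, limma adjusted p = 0.00102). Across the 10 arrays Pearson's r with CXCL10 was 0.97 for TNFAIP3 (permutation p = 3e-05, adjusted over 24 genes 0.00032) and Spearman's rho 0.94 (permutation p = 0.00018, adjusted 0.00216). For CXCL8 r was 0.94 (permutation p = 0.0003, adjusted 0.00144) and rho 0.87 (permutation p = 0.00208, adjusted 0.00713). TNFAIP2 and NFKB2 passed by r, 0.81 each (permutation p = 0.00579 and 0.00631, adjusted 0.0168). They did not by rho, 0.70 and 0.64 (adjusted permutation p = 0.0721 and 0.117). ARHGEF26 and ZNF248, lower in the CXCL10-high arrays, passed by rho, -0.75 each (permutation p = 0.0176, adjusted 0.0469). They did not by r, -0.61 and -0.67 (adjusted permutation p = 0.123 and 0.0847). No other lower gene of the 24 passed. Without DMSO 8 h replicates 1 and 4, the arrays farthest in CXCL10, r was 0.95 for TNFAIP3, 0.93 for CXCL1 and 0.87 for CXCL8 and HABP2. It was 0.56 for TNFAIP2, 0.51 for NFKB2, -0.67 for ARHGEF26 and -0.89 for ZNF248.

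By list, 8 of 14 chemokines rose with CXCL10 in the high-DDIT4 arrays, among them CCL20 (slope 0.72), CXCL5 (0.66) and CXCL16 (0.24). Of the NF-kB subunits and inhibitors 7 of 17 rose, and of the effectors 5 of 23, among them TNFRSF9 (0.74), CSF1 (0.52) and IL32 (0.39). GBP2 was the 1 of 31 interferon-stimulated genes to rise (slope 0.65, SE 0.10, limma adjusted p = 0.00411). HP rose by 0.61 and was 1 of 5 risers among 22 acute phase and complement genes. Against the share of all genes that rose, 2.41%, these counts are high for chemokines and NF-kB genes and close to it for interferon-stimulated genes. Most of these calls were lost under the alternatives described below. Without DMSO 8 h replicates 1 and 4, 2 of 14 chemokines, 1 of 17 NF-kB subunits and inhibitors and 0 of 23 effectors rose, and with ASNS as a term 3, 1 and 2.

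Some genes that were apart in the low-DDIT4 arrays did not pass here. CD68 had a slope of 0.05 (limma adjusted p = 0.522), THTPA 0.01 (limma adjusted p = 0.898) and SLC2A6 0.11 (limma adjusted p = 0.165), although SLC2A6 was the gene most like CXCL10 where DDIT4 was low. HEPACAM2 had a slope of 0.01 (SE 0.11, limma adjusted p = 0.958) and SLC6A6 one of 0.13 (limma adjusted p = 0.193). SERPINC1 and CPT1A, both higher in the CXCL10-high arrays, had slopes of 0.06 and -0.08 and did not pass. G2/M genes, all lower in the CXCL10-high arrays, had 0 of 30 that rose and 0 that fell, with a median slope of 0.02. ANXA1 and C4BPA, lower in the CXCL10-high arrays, rose with CXCL10 here by 0.56 (limma adjusted p = 0.0435) and 0.38 (limma adjusted p = 0.0297). Whether slopes differ between low-DDIT4 and high-DDIT4 arrays was not tested. Matrix and YAP targets had 7 of 22 that rose here, with ANKRD1 at 0.58 and CCN1 at 0.39, but 0 without DMSO 8 h replicates 1 and 4 and 0 with ASNS as a term, while their median difference in the low-DDIT4 arrays was 0.00, with ANKRD1 at 0.08 and CCN1 at -0.08.

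**Figure D4:**
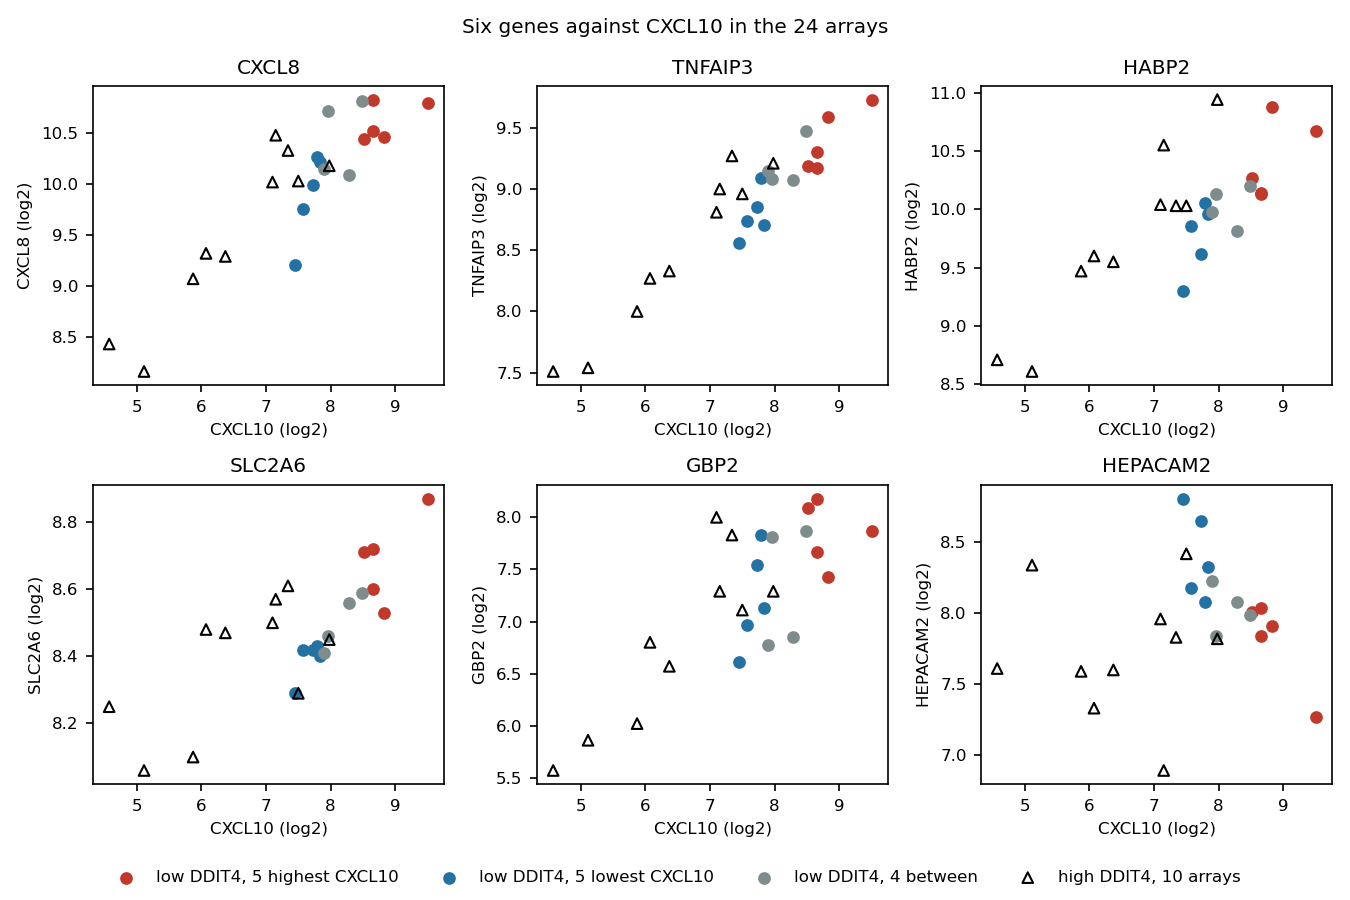
Log2 values of 6 genes against CXCL10 in all 24 arrays; circles are the 14 low-DDIT4 arrays by set and triangles the 10 high-DDIT4 arrays. CXCL8, TNFAIP3 and HABP2 are higher where CXCL10 is higher in both kinds of array, and HEPACAM2 is lower among the circles with a slope of 0.01 among the triangles.

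**Figure D5:**
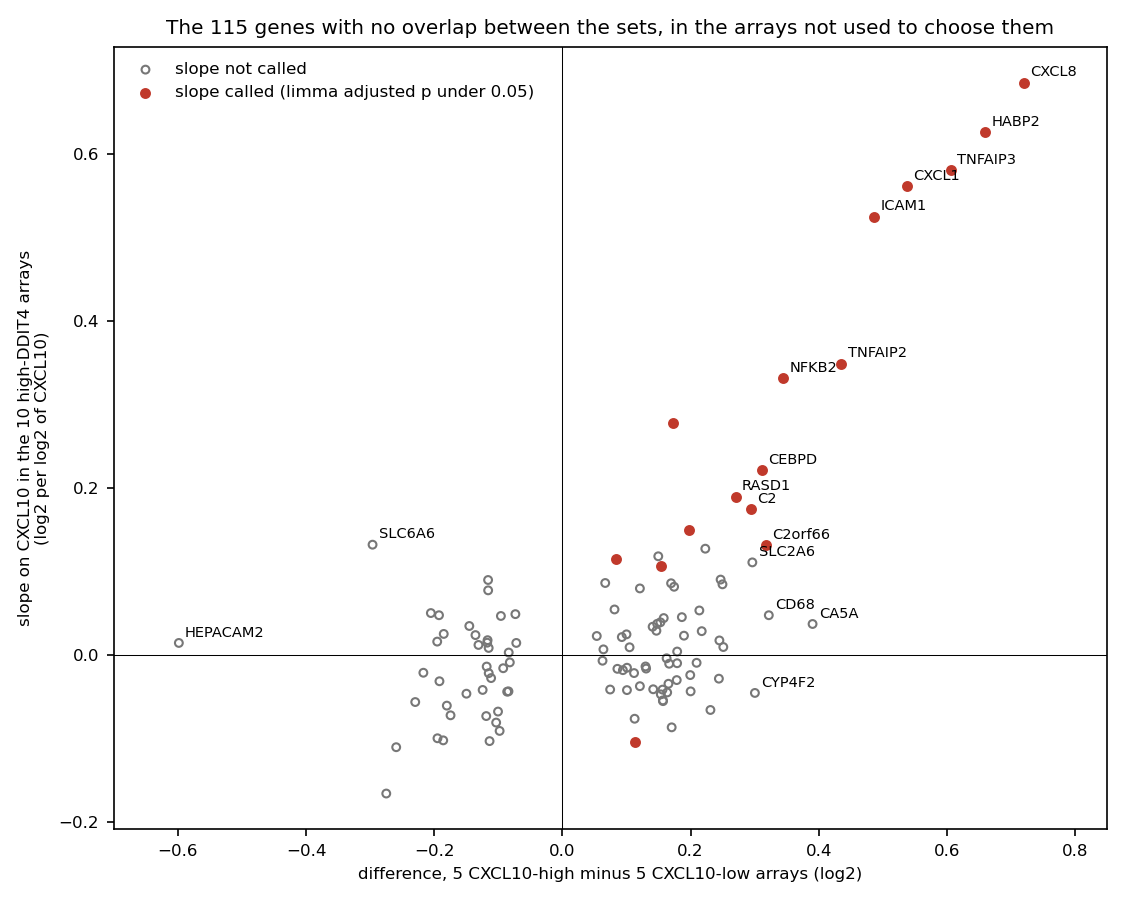
For the genes without overlap (74 higher and 41 lower), the difference between CXCL10-high and CXCL10-low arrays (x, log2) against the slope on CXCL10 in the 10 high-DDIT4 arrays (y, log2 per log2). Filled points had a slope with limma's adjusted p under 0.05; CXCL8, HABP2, TNFAIP3, CXCL1 and ICAM1 lie at the upper right, and HEPACAM2 and SLC6A6 at the left with slopes that did not pass.

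The high-DDIT4 arrays also differed in ASNS, which was lower where CXCL10 was higher (slope -0.22, limma adjusted p = 0.0123). With ASNS as a term, a choice made after seeing the data, 11 genes rose with CXCL10 (0.0602% of genes tested) and 0 fell, with 1051 at an unadjusted p under 0.05. The 11 were HABP2, CXCL1, GAL, TNFAIP3, HP, CCL20, CPN1, CXCL8, CSF1, APOH and SOD2. Without DMSO 8 h replicates 1 and 4, 19 genes rose (0.104%) and 2 fell (0.0109%), with TNFAIP3, CXCL1 and CXCL2 among the risers, while CXCL8 and HABP2 each had limma's adjusted p = 0.0837. Leaving out DMSO 8 h replicate 4 alone gave 81 rising genes. TNFAIP3 and CXCL1 were the genes of the 74 that passed under both alternatives.

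The labels did not separate the low-DDIT4 arrays in these genes. Over the 14 arrays, 8 DMSO and 6 silymarin, limma with terms for time and treatment called 0 of 18273 genes for silymarin against DMSO (0%), with 867 at an unadjusted p under 0.05, and 0 for 24 h against 4 h (0%), with 1530. CXCL8 was higher in silymarin by 0.24 (SE 0.22, limma adjusted p = 0.959) and TNFAIP3 by 0.14 (SE 0.17, limma adjusted p = 0.965). CCL20 was higher in silymarin by 0.48 (SE 0.17), with an unadjusted p of 0.0134 and limma's adjusted p = 0.951. DDIT4 itself, though under its limit in all 14, was 0.38 higher at 24 h than at 4 h (SE 0.12, limma adjusted p = 0.574). A p that misses the threshold does not show that the labels have no effect.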

How the data were processed

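Per the labels' protocols, 24 samples of Huh7.5.1 total RNA were measured on the Human Gene 1.0 ST platform of Affymetrix, 1 array each. The deposited values are on the log2 scale, and the submitters' processing notes name RMA and oligo without a version. Background correction, quantile normalization and probe summary are part of RMA, so differences between arrays in overall level are already reduced. Some remain, as the array medians given below still differ. The genome build is not given in the sources used here.

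Of 28869 probe sets, 19302 had 1 gene symbol in the platform annotation, 1729 had several and 7838 were not listed in it. The probe set with the highest mean was kept per gene, leaving 18274 genes, or 18273 without CXCL10. Array medians were 7.04 to 7.18, pairwise correlations 0.9888 to 0.9981, and no 2 arrays were identical. The number of arrays limits the precision.

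The sets of 5 arrays were defined by measured CXCL10 and DDIT4, so their contrast has no test. Differences are means ± SD, and a gene is without overlap when all 5 values lie on 1 side. limma 3.58.1 in R 4.3.3 (lmFit, eBayes, two-sided, Benjamini-Hochberg) gave slopes on CXCL10 over the 10 high-DDIT4 arrays, and label effects over the 14 low-DDIT4 arrays. Correlations used 100000 permutations. The fits were tested on simulated data. 

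The members, the 29 lists and the tests were chosen with earlier results of these data known. Named genes were the 12 per direction with the largest differences without overlap among genes above the median mean of 7.90, all members of the 4 inflammation lists, and the 3 widest of each other list. The 5 most like and 5 most opposed to CXCL10, the 5 per direction with the smallest slope p, DDIT4 and ASNS were added. Genes named outside the rule (ALB, AFP, SRF, DIAPH1, PLK3, C2, C2orf66, TCIRG1, BEND4, ANKRD1, CCN1, KLF6, JUNB and DUSP1) were chosen after their values were seen. Alternatives were other normalizations, dim genes left out, probe set means, other set sizes, terms for time, treatment or ASNS, and leaving out arrays. Promoters came from RefSeq (GRCh38.p14).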

Additional observations from a re-analysis of the deposited data

Results flagged for a closer look

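In 48 sets of 5 arrays, the CXCL10-high and CXCL10-low sets of the 24 genes with the largest differences without overlap, the gap between an extreme array and its nearest neighbour was compared with the range of the set, and 2 exceeded Dixon's critical value of 0.710. Chance alone gives about 1 in 20 such sets. SLC2A6, the hexose transporter most like CXCL10 among low-DDIT4 arrays, was 8.29 in DMSO 4 h replicate 3, the array with the lowest CXCL10, while the other 4 CXCL10-low arrays lay between 8.40 and 8.43. HEPACAM2 was 7.27 in DMSO 24 h replicate 5, the array with the highest CXCL10, while the other 4 CXCL10-high arrays lay between 7.84 and 8.04. Without that array the HEPACAM2 difference was -0.46 in place of -0.60.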

How the results depend on the processing

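The counts of genes without overlap, 74 higher and 41 lower, became 40 and 24 with dim genes left out, 244 and 287 with 4 arrays against 4, and 9 and 0 with 7 against 7; with fewer arrays per set less is asked of a gene. Leaving out 1 array gave 99 to 196 higher and 61 to 203 lower. The 440 rising and 174 falling slopes became 116 and 44 with time as a term, 11 and 0 with ASNS, and 19 and 2 without DMSO 8 h replicates 1 and 4. With quantile normalization 540 rose and 310 fell, and with treatment as a term 303 rose and 76 fell. Leaving out 1 array gave 81 to 445 rising and 29 to 190 falling, and the lowest of both came without DMSO 8 h replicate 4. The cause was not tested. Re-centring the arrays, repeated quantile normalization and probe set means gave 75 to 81 higher and 42 to 55 lower genes, but not the same ones: re-centring shared 55 of the 74 and 27 of the 41, and quantile normalization 46 and 19. Treatment labels gave 0 genes in every alternative, also without 1 array (0 to 0). Deviations of same-numbered arrays correlated from -0.1372 to 0.4264, so numbers were not taken as a pairing. With the replicate number as a block treatment still gave 0 and time gave 13 higher and 1 lower at 24 h, where all other time fits gave 0. For 188 named genes, 3655 of 3687 differences stayed within 1 SD of the main value, 32 moved by more and 0 were counted as reversed. That count does not cover every change of sign, since MT1G went from 0.13 to -0.01 without silymarin 24 h replicate 3. For 45 of the named genes with a called slope, 704 of 850 slopes still passed, 146 did not and 0 were counted as reversed.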

Other observations

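Of the 5 genes per direction with the smallest slope p in the high-DDIT4 arrays, all but TNFAIP3 and CXCL1 overlapped between the CXCL10-high and CXCL10-low arrays. CPN1, the catalytic subunit of the plasma carboxypeptidase that trims anaphylatoxins, rose by 0.36 per log2 of CXCL10 (SE 0.03, limma adjusted p = 1.24e-05), and its difference between the CXCL10-high and CXCL10-low arrays was 0.15 with overlap, from 0.08 without silymarin 4 h replicate 4 to 0.23 without DMSO 24 h replicate 4, and 0.09 without DMSO 4 h replicate 3. GAL, the neuropeptide galanin, rose by 0.41 (SE 0.03, limma adjusted p = 2.08e-05) with a difference of 0.15, which was 0.09 without silymarin 4 h replicate 4 and 0.08 without DMSO 4 h replicate 3. FAM151A rose by 0.36 with a difference of 0.19. APOH, a phospholipid-binding plasma protein, rose by 0.36 with a difference of 0.17. Falling genes were led by TMEM268 (slope -0.22, limma adjusted p = 0.00106) and L3MBTL3, a methyl-lysine reader (slope -0.36, limma adjusted p = 0.00176), whose differences were 0.02 and -0.19. Without silymarin 4 h replicate 4 that of L3MBTL3 was -0.07. SATB1, a chromatin organiser, and BCAT1, the cytosolic branched-chain aminotransferase, fell by 0.25 and 0.21 and differed by -0.24 and -0.27 among the low-DDIT4 arrays, or by -0.15 for BCAT1 without silymarin 24 h replicate 3.

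Immediate early genes had 7 of 27 members that rose with CXCL10 in the high-DDIT4 arrays, against 2.41% of all genes, but 1 without DMSO 8 h replicates 1 and 4 and 0 with ASNS as a term. EGR1 rose by 0.40, KLF6 by 0.26, JUNB by 0.24 and DUSP1, a phosphatase that shuts off MAP kinases, by 0.20. Among the low-DDIT4 arrays 19 of the 27 were higher where CXCL10 was higher, with a median difference of 0.06 and 0 without overlap. EGR1 differed there by 0.23, but by 0.11 without DMSO 24 h replicate 1 and by 0.15 without silymarin 4 h replicate 4.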
